A study of Mus musculus with 6 samples.

Results

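Glutathione and NRF2 target genes were described in cultured prostate cancer stem-like cells of the TRAMP mouse, as RNA levels on 6 arrays. The genes were the 10 symbols Gstm1, Gstm2, Gsta4, Nqo1, Gclc, Gclm, Hmox1, Txnrd1, Gsr and Srxn1, taken by name from array rows annotated with a single gene. All 10 had a row, 1 each, among 9490 genes with a row of their own. The TNE group held 3 samples of cells taken from prostates with neuroendocrine tumours, and the labels leave out the age of those mice. The TPIN group held 3 samples taken from prostates with intraepithelial neoplasia, at an age of 10 to 11 weeks. All 6 samples came from mice with the TRAMP transgene, a viral oncogene under a promoter active in prostate epithelium, and all cultures grew without serum with EGF and FGF2. The labels name no clone and do not tell whether the replicates are separate mice or separate cultures, so p-values rest on a spread that may be technical.

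NRF2, encoded by Nfe2l2, is a transcription factor that the adaptor protein KEAP1 holds at a low level by sending it for degradation. Oxidants and electrophiles modify KEAP1, NRF2 then accumulates, pairs with a small MAF protein and binds antioxidant response elements beside its target genes. The targets make and recycle glutathione, the main small thiol of the cell, join it to reactive compounds, reduce quinones, break down haem and keep thioredoxin and peroxiredoxins reduced. In prostate cancer this system is known above all through silencing of the human pi-class glutathione transferase gene GSTP1.

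RefSeq promoter windows (GRCm38.p6), which span 250 bases before to 50 bases after a start site, matched 6 of the 10 genes with 9 windows in all. Gsta4, Gclc, Hmox1 and Gsr were not among them. The core letters of the antioxidant response element were searched on both strands in the forms TGACNNNGC and TGAGNNNGC. Matches stood in 3 of the 9 windows, those of Gclm, Srxn1 and one of the 3 of Txnrd1. Over all 32544 distinct windows of 300 bases, 12.4% held the first form, 17.8% the second and 27.9% either one. The windows of Gstm2 (chr3:107986371-107986670, minus strand) and Nqo1 (chr8:107403156-107403455, minus strand) are shown because these genes fell in TNE, and they hold neither form. The windows of Gclm (chr3:122245307-122245606, plus strand), Txnrd1 (chr10:82858956-82859255, plus strand) and Srxn1 (chr2:152105274-152105573, plus strand) are shown for their matches, in capitals. Each reads 5′ to 3′ along its gene's strand.
Gstm2: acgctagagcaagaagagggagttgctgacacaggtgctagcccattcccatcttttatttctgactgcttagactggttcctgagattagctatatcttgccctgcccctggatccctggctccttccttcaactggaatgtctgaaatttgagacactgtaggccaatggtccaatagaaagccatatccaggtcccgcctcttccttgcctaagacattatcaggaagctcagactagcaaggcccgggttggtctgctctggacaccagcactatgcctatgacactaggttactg
Nqo1: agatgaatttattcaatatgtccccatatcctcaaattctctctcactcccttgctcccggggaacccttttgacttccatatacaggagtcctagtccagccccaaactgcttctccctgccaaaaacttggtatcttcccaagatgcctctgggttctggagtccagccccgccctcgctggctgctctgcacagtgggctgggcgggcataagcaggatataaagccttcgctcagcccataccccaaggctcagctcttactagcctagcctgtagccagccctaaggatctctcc
Gclm: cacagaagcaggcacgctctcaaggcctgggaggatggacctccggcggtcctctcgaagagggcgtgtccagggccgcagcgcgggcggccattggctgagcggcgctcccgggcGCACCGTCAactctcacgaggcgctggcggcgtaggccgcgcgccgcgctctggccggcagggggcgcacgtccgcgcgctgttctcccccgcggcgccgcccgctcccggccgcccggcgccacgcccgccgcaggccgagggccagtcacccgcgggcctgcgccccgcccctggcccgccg
Txnrd1: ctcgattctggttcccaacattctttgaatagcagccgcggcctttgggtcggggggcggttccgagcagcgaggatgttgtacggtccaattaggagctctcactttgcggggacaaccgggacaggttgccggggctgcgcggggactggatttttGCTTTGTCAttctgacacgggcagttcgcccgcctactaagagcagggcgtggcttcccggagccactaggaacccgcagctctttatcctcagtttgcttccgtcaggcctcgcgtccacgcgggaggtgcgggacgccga
Srxn1: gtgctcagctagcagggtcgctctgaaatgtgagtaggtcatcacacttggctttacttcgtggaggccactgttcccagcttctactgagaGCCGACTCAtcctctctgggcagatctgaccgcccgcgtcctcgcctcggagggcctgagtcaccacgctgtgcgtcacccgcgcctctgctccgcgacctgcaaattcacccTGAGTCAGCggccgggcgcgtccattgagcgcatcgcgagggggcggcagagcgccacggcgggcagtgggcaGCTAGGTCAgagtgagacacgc
The Gclm match lay at positions -134 to -126 from the start site and the Txnrd1 match at -92 to -84, both on the opposite strand, where they read TGACGGTGC and TGACAAAGC. Srxn1 held 3 matches that did not overlap. One, TGAGTCAGC at -45 to -37, lay on the gene's strand, and TGAGTCGGC at -158 to -150 and TGACCTAGC at 29 to 37 lay on the opposite strand. These matches describe letters and are not evidence of binding, and windows without them say nothing of elements farther away.

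Array medians lay between 8.82 (TNE replicate 3) and 9.10 (TNE replicate 1) on the log2 scale. The correlation over all rows was 0.825 to 0.917 within TNE, 0.842 to 0.905 within TPIN and 0.549 to 0.733 between the groups. Over all 9490 genes, 20.5% passed limma at an adjusted p under 0.05, 10.3% higher and 10.2% lower in TNE, and the groups did not overlap for 43.8% (23.3% with TNE higher and 20.5% with TNE lower). The median difference was -0.02. Markers moved with the groups: 12 of 16 measured fibroblast and smooth muscle markers fell in TNE and none rose. Their mean ranged from 7.55 to 8.72 on TNE arrays, against 11.39 to 11.64 on TPIN arrays. Of 7 measured neuroendocrine markers 4 rose and none fell, and their mean ranged from 8.99 to 10.65 in TNE, against 7.77 to 8.37 in TPIN. Of 16 epithelial markers only Krt8 and Krt18 had a row (7.59 ± 0.26 and 7.60 ± 0.15 in TNE, 7.92 ± 0.06 and 8.27 ± 0.14 in TPIN, SD, n = 3), so the epithelial label could hardly be checked. None of 4 measured leukocyte markers passed, and 1 of 5 endothelial markers rose and 2 fell. The part of these cell type markers in the results below was not tested.

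The 10 genes did not move as one. Gstm2 and Nqo1 fell about 8-fold to 9-fold in TNE, Gsr rose 2.78-fold, and the other 7 did not pass. The calls made 3 of 10 genes, beside 20.5% of all genes tested. The groups did not overlap for 5 of the 10, beside 43.8% of all genes. The median log2 difference of the 10 genes, TNE minus TPIN, was -0.43, beside -0.02 over all genes. Differences ran from -3.16 to 1.48, with 5 positive and 5 negative. In such bulk cultures, fewer cells that express a gene and less RNA per cell cannot be told apart.

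**Figure D1:**
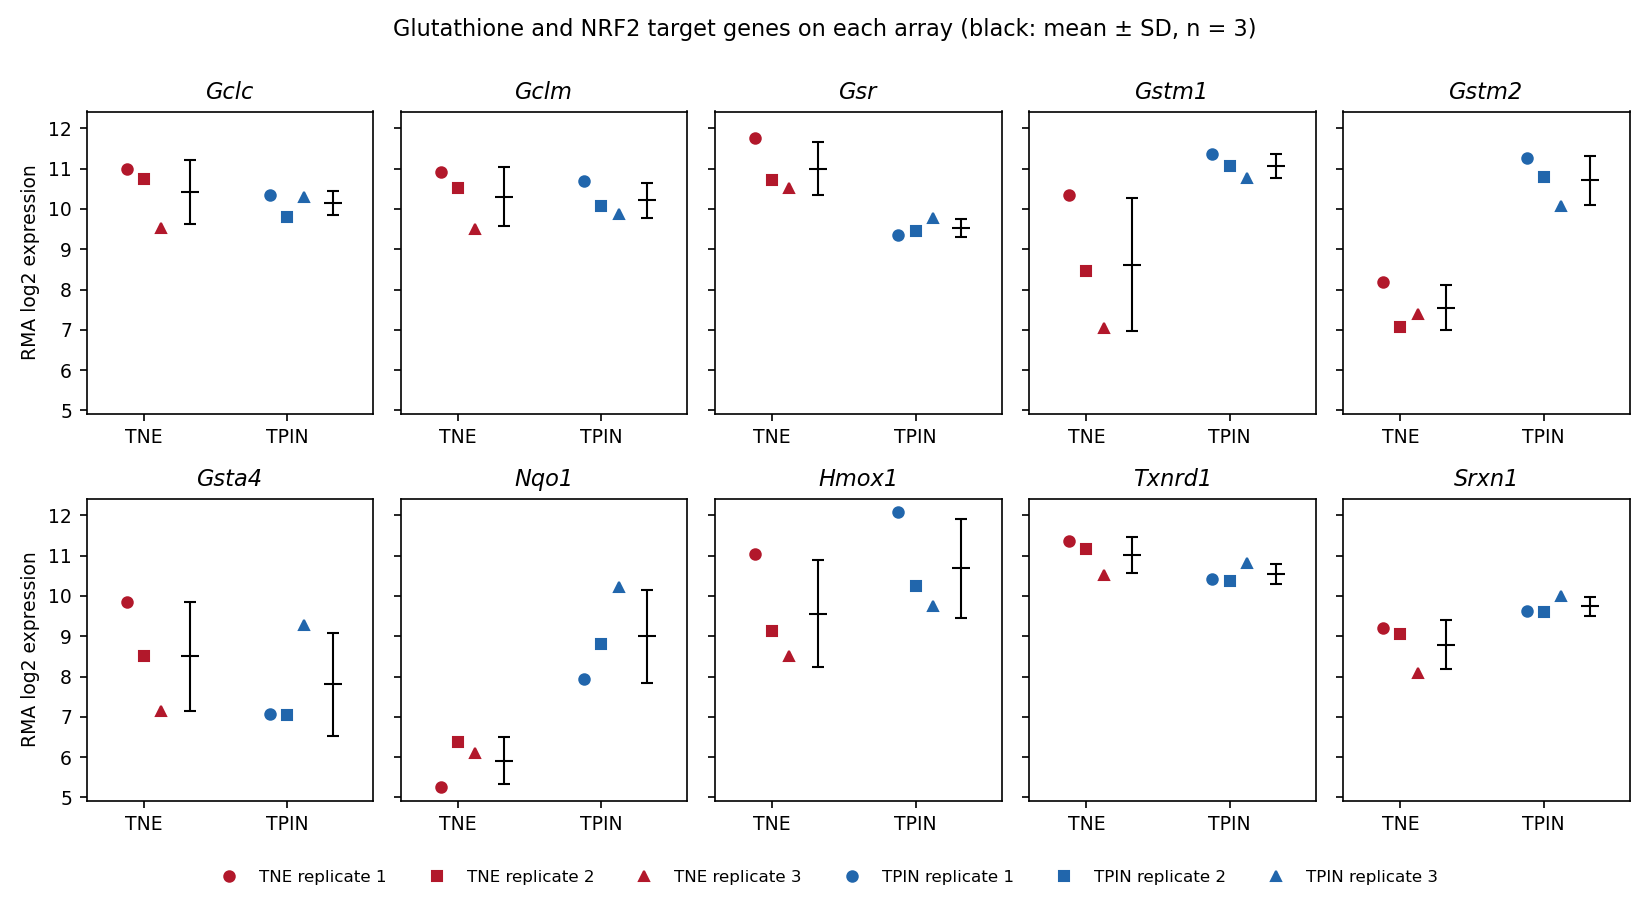
RMA log2 expression of the 10 genes on each array, TNE in red and TPIN in blue, with the mean ± SD of 3 arrays in black. Gstm2 and Nqo1 lie lower on all 3 TNE arrays than on any TPIN array, Gsr lies higher, and TNE replicate 3 is the lowest TNE array for 8 of the 10 genes.

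Neither gene of glutathione synthesis among the 10 passed the test. Gclc, the catalytic subunit of the enzyme that joins glutamate and cysteine in the rate-limiting step, had log2 levels of 10.99, 10.75 and 9.52 on TNE arrays 1 to 3, against 10.34, 9.81 and 10.29 on TPIN arrays 1 to 3. The TPIN values lay inside the TNE range. The difference was 0.28 with a 95% interval from -0.70 to 1.25 (limma adjusted p = 0.645). Gclm, the modifier subunit that raises the activity of the catalytic one, had 10.92, 10.52 and 9.49 on the TNE arrays, against 10.68, 10.08 and 9.87 on the TPIN arrays. The groups overlapped again, and the difference was 0.10 with an interval from -0.89 to 1.08 (limma adjusted p = 0.880). Both signs turned when single arrays were left out (lowest differences -0.011 and -0.21).

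Glutathione reductase was higher in TNE. Its gene Gsr, whose product restores oxidised glutathione with NADPH, had 11.75, 10.73 and 10.53 on the TNE arrays, against 9.34, 9.46 and 9.78 on the TPIN arrays. Every TNE array lay above every TPIN array, with 0.75 between the nearest arrays. The level was 11.00 ± 0.66 in TNE and 9.53 ± 0.23 in TPIN (SD, n = 3), a difference of 1.48 (SE 0.37, limma adjusted p = 0.0309). The call was lost without TNE replicate 1, TNE replicate 2, TPIN replicate 1 or TPIN replicate 2 (limma adjusted p = 0.0581, 0.0711, 0.103 and 0.0885).

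Among the transferases, which join glutathione to electrophiles, Gstm2 fell in TNE, and neither the other mu-class gene of the 10, Gstm1, nor the alpha-class gene Gsta4 passed. Gstm2 had 8.18, 7.08 and 7.40 on the TNE arrays, against 11.27, 10.80 and 10.07 on the TPIN arrays. The groups lay 1.89 apart at their nearest arrays, more than the range within either group (1.105 in TNE and 1.201 in TPIN). Gstm2 fell by 3.16 on the log2 scale, 8.95-fold (SE 0.42, limma adjusted p = 0.00328), the 196th most negative difference of 9490 genes. Leaving out single arrays kept the call, with differences from -3.48 to -2.88.

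Gstm1, the neighbouring mu-class gene, had 10.34, 8.45 and 7.05 on the TNE arrays, against 11.36, 11.06 and 10.76 on the TPIN arrays. The TNE arrays spread over 3.30 log2 units, and TNE replicate 1 came within 0.41 of the lowest TPIN array. The difference of -2.44 (SE 0.74) just missed the threshold (limma adjusted p = 0.0517). It was -3.31 and passed without TNE replicate 1 (limma adjusted p = 0.00572), and was -1.66 without TNE replicate 3 (limma adjusted p = 0.0901). Leaving out any of the other 4 arrays also gave no call (limma adjusted p = 0.0817 to 0.149). It also passed with each array centred on its median (limma adjusted p = 0.0400), with the dimmest 25% of genes left out (0.0410) and with array weights (0.0128).

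Gsta4, an alpha-class enzyme that takes reactive aldehydes of lipid peroxidation, had 9.85, 8.51 and 7.13 on the TNE arrays, against 7.08, 7.06 and 9.28 on the TPIN arrays. Each group held high and low arrays. The difference of 0.69 had an interval from -1.18 to 2.56 (limma adjusted p = 0.542), too wide to tell a rise from a fall.

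Nqo1 was lower in TNE. It encodes a flavoenzyme that reduces quinones to hydroquinones and is widely used as a marker of NRF2 activity. Its levels were 5.26, 6.37 and 6.10 on the TNE arrays, against 7.95, 8.81 and 10.22 on the TPIN arrays. All TNE arrays lay below all TPIN arrays by at least 1.58, and the TPIN arrays differed from each other by up to 2.27. The level was 5.91 ± 0.58 in TNE and 8.99 ± 1.15 in TPIN, a difference of -3.08 (SE 0.58, 8.47-fold, limma adjusted p = 0.0110). The call held without any single array, with differences from -3.60 to -2.47, the smaller one without TPIN replicate 3. RMA narrows differences near background, and no detection call comes with the low TNE values.

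The remaining targets did not pass. Hmox1, haem oxygenase, which opens the haem ring to biliverdin, had 11.04, 9.14 and 8.50 on the TNE arrays, against 12.08, 10.24 and 9.74 on the TPIN arrays. In each group replicate 1 was the highest, and the groups overlapped. Its difference of -1.13 had an interval from -2.94 to 0.69 (limma adjusted p = 0.312).

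Txnrd1, the cytosolic thioredoxin reductase, had 11.38, 11.17 and 10.52 on the TNE arrays, against 10.43, 10.38 and 10.82 on the TPIN arrays. TNE replicate 3 lay among the TPIN arrays, and the difference was 0.48 with an interval from -0.26 to 1.22 (limma adjusted p = 0.290). With array weights Txnrd1 passed (difference 0.70, limma adjusted p = 0.0449). Srxn1, sulfiredoxin, which repairs overoxidised peroxiredoxins, had 9.22, 9.06 and 8.10 on the TNE arrays, against 9.62, 9.60 and 10.00 on the TPIN arrays. The groups did not overlap, but the difference of -0.95 (SE 0.36) did not pass (limma adjusted p = 0.0931).

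**Figure D2:**
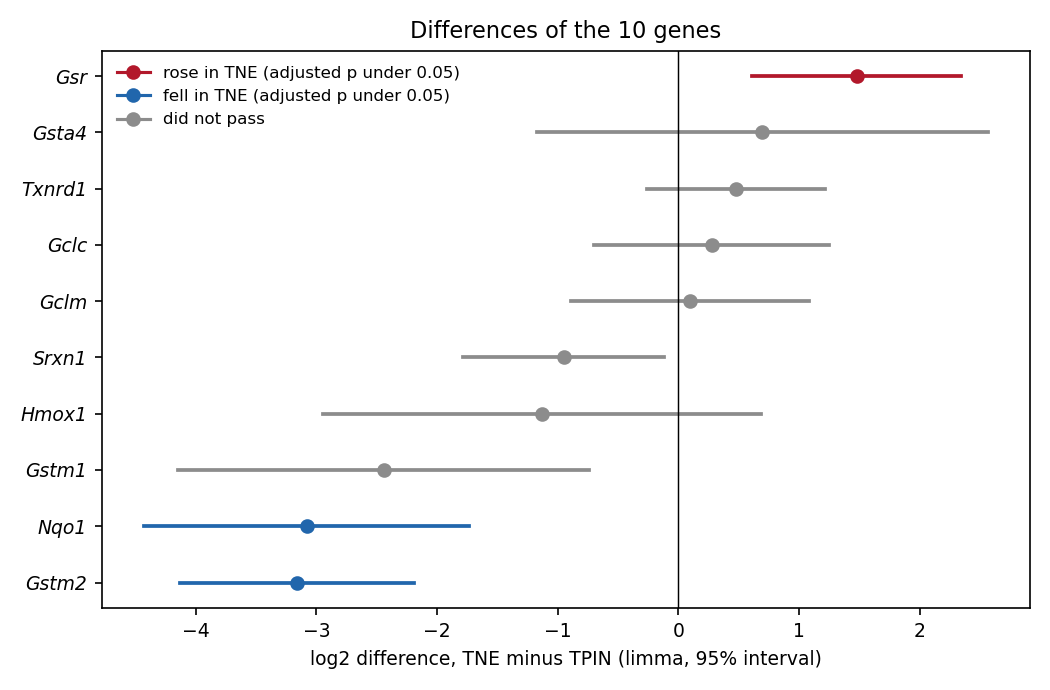
Log2 difference, TNE minus TPIN, of each of the 10 genes, with the 95% interval from limma. Only Gsr lies above 0 with an adjusted p under 0.05, and Gstm2 and Nqo1 lie below 0. The intervals of Gclc (-0.70 to 1.25) and Gclm (-0.89 to 1.08) span 0.

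The arrays of a group differed in common over these genes. TNE replicate 1 was the highest TNE array for 9 of the 10 genes and TNE replicate 3 the lowest for 8. Over all genes those arrays held these places for 38.3% and 48.6%. Nqo1 was the exception, lowest in TNE replicate 1. The mean over the 10 genes was 9.89, 9.18 and 8.44 on TNE arrays 1 to 3, against 10.01, 9.73 and 10.08 on TPIN arrays. The replicate with the lowest mean, TNE replicate 3, also had the highest mean of fibroblast markers (8.72) and of neuroendocrine markers (10.65) among TNE arrays.

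The mu-class family was then followed along its gene cluster. Its 7 genes neighbour each other in RefSeq with no other protein-coding gene between them, in the order Gstm5, Gstm7, Gstm6, Gstm3, Gstm2, Gstm1, Gstm4. In the last 4 of this order TNE lay below TPIN on every array, and 3 of them fell, whereas the first 3 overlapped between the groups. Over all genes 10.2% fell, and TNE lay wholly below TPIN for 20.5%. Gstm3 had 7.51, 6.19 and 6.26 on the TNE arrays, against 8.62, 8.52 and 8.30 on the TPIN arrays (difference -1.83, limma adjusted p = 0.0176). Gstm4 had 9.02, 7.03 and 7.59 on the TNE arrays, against 10.10, 9.59 and 9.77 on the TPIN arrays (difference -1.94, limma adjusted p = 0.0327). TNE replicate 1 was the highest TNE array for each of these 4 genes. The Gstm3 call was lost without TNE replicate 2, TPIN replicate 1 or TPIN replicate 2, and the Gstm4 call without any single array other than TNE replicate 1.

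Gstm5, Gstm7 and Gstm6, given here for the whole family, had differences of 0.29, 0.13 and -0.32, and none passed (limma adjusted p = 0.479, 0.782 and 0.475). Gstm5 had 10.05, 10.27 and 10.32 on the TNE arrays, against 9.87, 9.57 and 10.32 on the TPIN arrays. The coding sequences of this family are alike, and probes of one gene can bind RNA of another, so the split between Gstm1, Gstm2, Gstm3 and Gstm4 is uncertain.

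**Figure D3:**
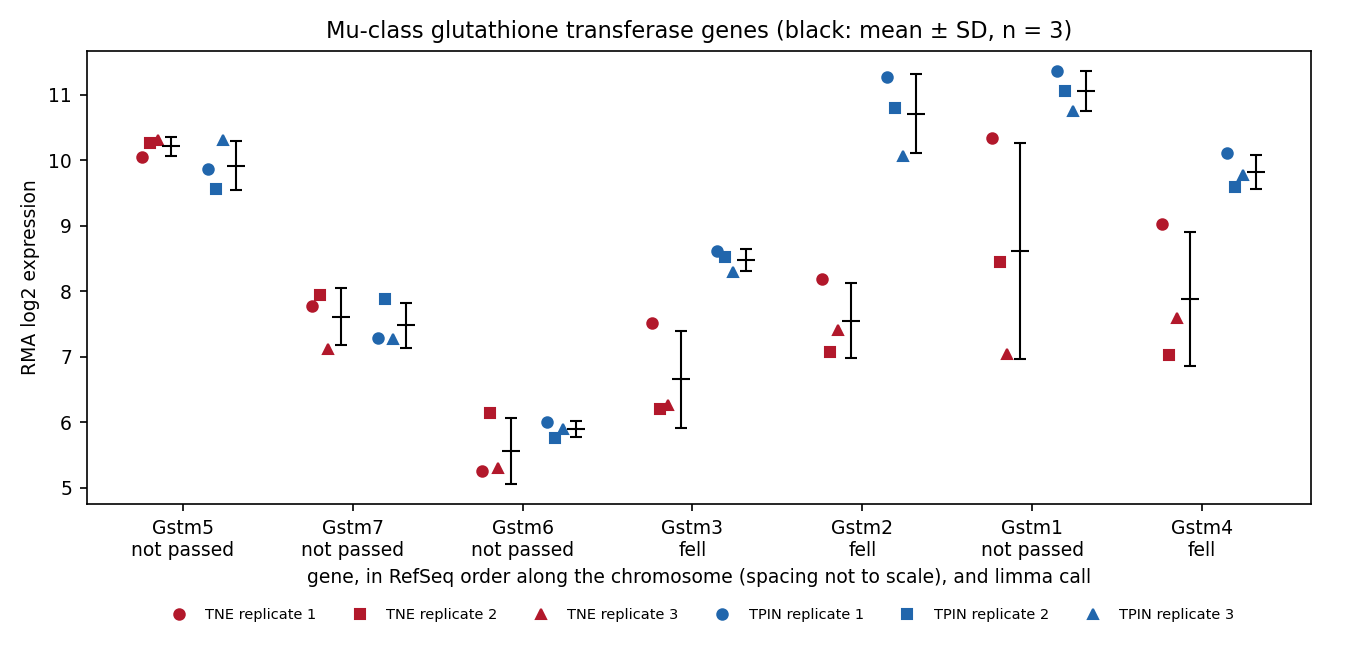
RMA log2 expression of the 7 mu-class transferase genes in RefSeq order along the chromosome, TNE left in red and TPIN right in blue, with mean ± SD of 3 arrays in black. Gstm3, Gstm2, Gstm1 and Gstm4 lie lower on every TNE array than on any TPIN array, and the other 3 genes overlap.

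Genes around the 10 were taken from lists of glutathione and NRF2 biology, 157 genes of which 111 had a row. In TNE 21 fell, 2 rose and 88 did not pass. The 20.7% called in either direction stood at the share of all genes, 20.5%. The groups did not overlap for 44.1%, beside 43.8% of all genes. The share that fell was 18.9%, beside 10.2% of all genes, and the share that rose was 1.8%, beside 10.3%. Their median difference was -0.56, beside -0.02 over all genes. Beside this, fibroblast markers averaged 7.97 in TNE and 11.50 in TPIN. Leaving out TNE replicate 2 lowered the number that fell to 6, either TPIN replicate 1 or 2 to 9, and TNE replicate 3 to 13. With TNE replicate 2 left out 1 gene rose, and with TPIN replicate 3 left out 7 rose. Over all 9490 genes the counts without TNE replicate 2 dropped as well, to 475 that fell and 357 that rose. With all arrays 965 fell and 976 rose.

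The NRF2 gene itself was lower in TNE. Nfe2l2 had 10.64, 9.89 and 8.82 on the TNE arrays, against 11.40, 11.94 and 11.57 on the TPIN arrays, a fall of 3.62-fold (difference -1.85, SE 0.46, limma adjusted p = 0.0289). The call was lost without TNE replicate 2 or any single TPIN array (highest limma adjusted p = 0.0922). Of 10 measured regulators it was the only one to pass, 10.0% called where 20.5% of all genes were. Btrc, part of a second ligase that marks NRF2 for degradation, had 8.93 ± 0.46 in TNE and 9.92 ± 0.39 in TPIN (limma adjusted p = 0.0753). Rbx1 went the other way, with 11.24 ± 0.25 in TNE and 10.58 ± 0.15 in TPIN (limma adjusted p = 0.114). Every TNE array lay above every TPIN array for Rbx1. Keap1, named after its values were seen, had 9.55 ± 0.31 in TNE and 9.36 ± 0.36 in TPIN (limma adjusted p = 0.659).

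Of 21 other genes of glutathione supply, breakdown and thiol exchange 5 fell and none rose, so that 23.8% were called, beside 20.5% of all genes (median difference -0.63). Glrx, a glutaredoxin that removes glutathione from proteins, was 7.83-fold lower, at 7.87, 6.58 and 7.01 on the TNE arrays, against 10.49, 11.07 and 8.80 on the TPIN arrays (limma adjusted p = 0.0149). Anpep, an aminopeptidase that splits cysteinylglycine, was 5.98-fold lower, the amino acid transporter Slc1a5 3.27-fold and the gamma-glutamyl transferase Ggt5 4.73-fold. Esd, a hydrolase of formylglutathione, was 2.20-fold lower. The calls of Anpep and Slc1a5 held without any single array, and Glrx lost its call without TNE replicate 2 or TPIN replicate 1. Without TPIN replicate 3 the differences of Glrx and Ggt5 were -3.63 and -3.00, against -2.97 and -2.24 with all arrays. Esd lost its call without 4 of the 6 arrays taken singly and Ggt5 without 5.

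Of 17 other transferases and related proteins 4 fell and none rose (23.5% called, beside 20.5% of all genes), with a median difference of -0.36. Gstk1, a kappa-class enzyme of mitochondria and peroxisomes, had 6.59, 7.06 and 6.47 on the TNE arrays, against 10.39, 9.45 and 8.44 on the TPIN arrays, 6.59-fold lower (limma adjusted p = 0.00927). Its call held without any single array. Gstt3, a theta-class gene, was 2.48-fold lower (limma adjusted p = 0.0490) and lost its call without any single array other than TPIN replicate 3, and under 3 other settings (limma adjusted p = 0.0510 to 0.0546). Gstm3 and Gstm4, above, were the other 2. Gstcd had a difference of 0.70 and did not pass (limma adjusted p = 0.0854).

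Of 11 peroxidases, superoxide dismutases and catalase 3 fell and none rose (27.3% called, beside 20.5% of all genes), with a median difference of -0.98. Gpx8 and Gpx7, peroxidases of the endoplasmic reticulum, were 6.88-fold and 2.53-fold lower, and Cat, catalase, 3.42-fold. Gpx8 had 10.72, 9.33 and 7.51 on the TNE arrays, against 12.23, 12.12 and 11.55 on the TPIN arrays, and TNE replicate 3 was again the lowest. Gpx7 lost its call without TNE replicate 2 or TPIN replicate 2, Gpx8 without TNE replicate 2 or any single TPIN array, and Cat without any single array other than TNE replicate 1 or TPIN replicate 3. The Gpx8 difference of -2.78 was -3.55 without TNE replicate 1 and -1.94 without TNE replicate 3. Sod1 and Sod2, the cytosolic and mitochondrial superoxide dismutases, had differences of 0.77 and -0.98 and did not pass (limma adjusted p = 0.0981 and 0.100).

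Of 15 genes of the thioredoxin system 2 fell and none rose, 13.3% called beside 20.5% of all genes (median difference -0.45). Txnip, which binds thioredoxin and blocks it, was 3.21-fold lower, at 9.56, 10.42 and 10.14 on the TNE arrays, against 11.48, 11.68 and 12.01 on the TPIN arrays (limma adjusted p = 0.0111), a call kept without any single array. Msrb2, a mitochondrial methionine sulfoxide reductase, was 2.27-fold lower and lost its call without 4 of the 6 arrays taken singly. Of 13 genes of NADPH supply 2 fell and 1 rose, 23.1% called beside the 20.5% of all genes (median difference 0.28). Aldh1l1, a folate enzyme that yields NADPH, was 3.07-fold lower (7.27 ± 0.15 in TNE, 8.89 ± 0.11 in TPIN, limma adjusted p = 0.00556). Idh1, the cytosolic isocitrate dehydrogenase, was 2.81-fold lower, a call lost without any single array other than TNE replicate 1, with all rows tested (limma adjusted p = 0.0504) and after quantile normalization (0.0674). Me2, a mitochondrial malic enzyme that forms mainly NADH rather than NADPH, was 2.88-fold higher (limma adjusted p = 0.0158). Its call was lost without TNE replicate 2. Mthfd1 and Aldh1l2 had differences of 0.965 and -0.92 and did not pass (limma adjusted p = 0.0687 and 0.0724).

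Of 24 genes of detoxification, export, haem and iron 4 fell and 1 rose, with a median difference of -0.94. The 20.8% called stood at the share of all genes, 20.5%. The biliverdin reductases, which act after haem oxygenase, split. Blvra had 10.59, 11.10 and 10.86 on the TNE arrays, against 8.14, 8.07 and 9.55 on the TPIN arrays, 4.79-fold higher (limma adjusted p = 0.0116). Blvrb had 8.62, 8.46 and 8.15 on the TNE arrays, against 10.16, 10.21 and 9.99 on the TPIN arrays, 3.28-fold lower (limma adjusted p = 0.00549). Both calls held without any single array. Ptgr1, a prostaglandin reductase, Pir, the iron-binding protein pirin, and Osgin1 were 3.42-fold, 2.74-fold and 1.82-fold lower. Ptgr1 and Pir lost their calls without TNE replicate 2, and Osgin1 without any single array other than TPIN replicate 3, and under 3 other settings (limma adjusted p = 0.0506 to 0.0595).

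Nqo1 is also a target of the aryl hydrocarbon receptor, whose part in the Nqo1 fall was not tested. Of 7 measured genes of that pathway 2 fell and none rose (28.6% called, 20.5% of all genes). The groups did not overlap for 28.6% of them, beside 43.8% of all genes. Xdh, xanthine dehydrogenase, had 7.55, 6.70 and 8.11 on the TNE arrays, against 11.63, 11.18 and 11.33 on the TPIN arrays, 15.2-fold lower (limma adjusted p = 0.00124). Arnt, the partner of the receptor, was 2.24-fold lower (limma adjusted p = 0.0464), a call lost without any single array other than TPIN replicate 3. Ahrr, Tiparp and Arnt2 overlapped between the groups and did not pass. Their differences were -0.67, -0.62 and 0.63 (limma adjusted p = 0.151, 0.336 and 0.46). Cyp1b1, named after its values were seen, overlapped as well (difference -0.31, limma adjusted p = 0.839). Ahr itself, named after its values were seen, had 8.52 ± 0.47 in TNE and 8.43 ± 0.65 in TPIN (limma adjusted p = 0.881).

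**Figure D4:**
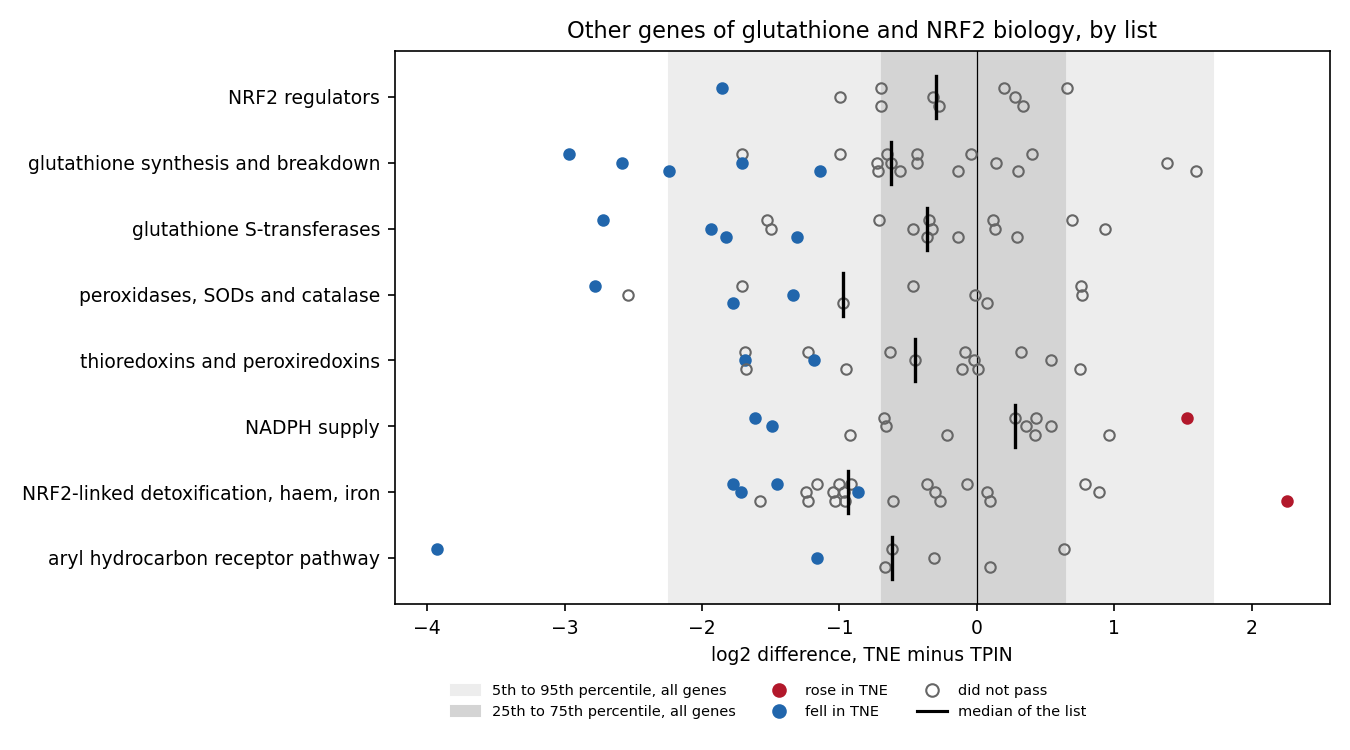
Log2 difference, TNE minus TPIN, of every measured gene of 8 lists, 1 point a gene, filled where the gene passed limma, with the median of each list as a black bar and percentiles of all genes as grey bands. Filled points lie mostly left of 0, and the exceptions are Blvra and Me2.

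The genes closest in pattern to the 3 that passed were found by the root mean square distance of log2 values over the 6 arrays, after each gene's mean was subtracted. Closest to Gstm2 were Nnmt (a methyltransferase of nicotinamide), Rhoj, Tbc1d2b, Tmem176a and Zcchc24, at 0.198 to 0.244. Closest to Nqo1 were Clec1a, Cd55 (a regulator of complement), Sgcd, C2 (a complement component) and Itih5, at 0.383 to 0.491. Closest to Gsr were Ankrd10, Nek3, Ash2l, Podxl and Bpgm, at 0.081 to 0.196. Ankrd10 had 11.36, 10.20 and 9.96 on the TNE arrays, against 8.75, 8.88 and 9.37 on the TPIN arrays, and followed Gsr on each array. None of the 15 genes was in the lists of glutathione and NRF2 biology. These distances describe 6 arrays in 2 groups, where many genes differ between the groups.

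**Figure D5:**
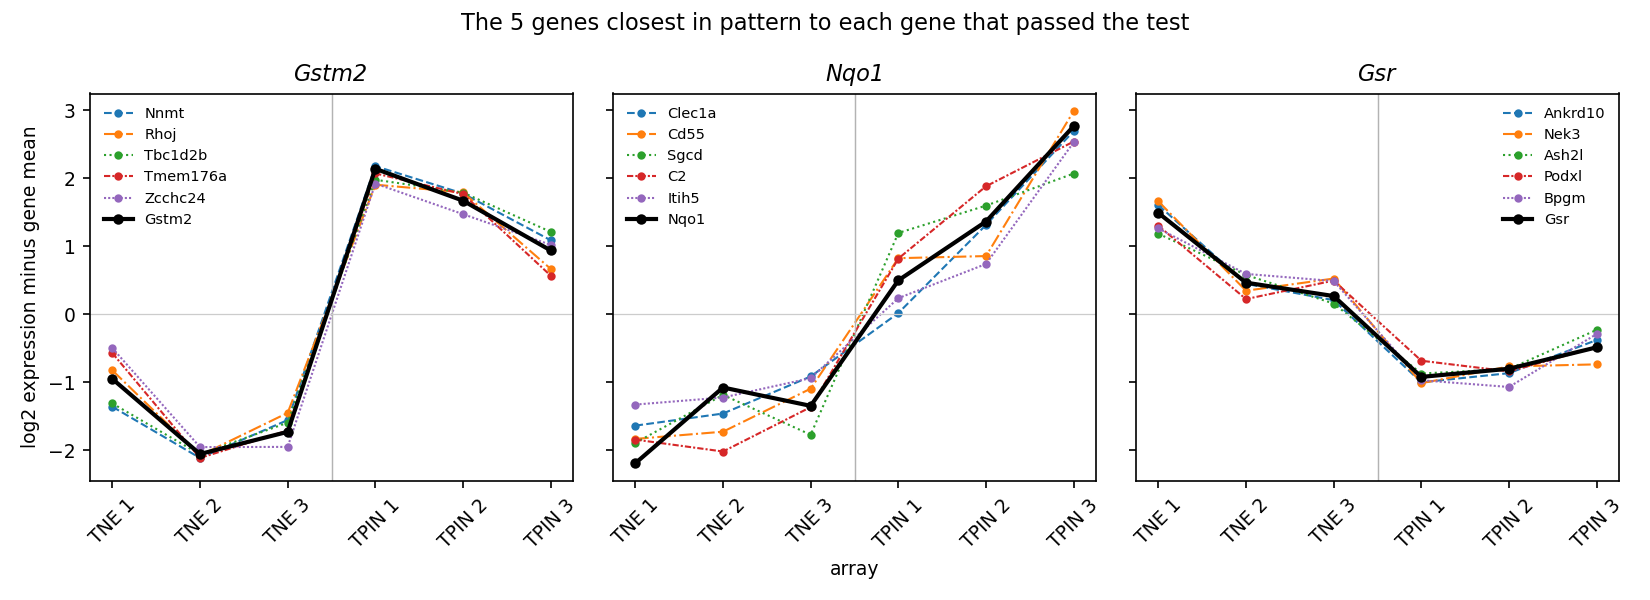
Log2 expression minus the gene's mean on the 6 arrays, TNE left and TPIN right, for Gstm2, Nqo1 and Gsr in black and the 5 genes closest to each in colour. Lines only join points of a gene. Gstm2 and its neighbours are highest in TPIN replicate 1, Nqo1 and its neighbours in TPIN replicate 3, and Gsr and its neighbours in TNE replicate 1.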

How the data were processed

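Total RNA of 6 cultures was labelled with biotin as cDNA and hybridised to single-colour oligonucleotide arrays, per the labels' protocols. The authors deposited log2 expression values, and the submitters' processing notes name RMA as the method. RMA subtracts background, gives all arrays one distribution and combines the probes behind each row. The deposited rows did not share one distribution, as their array medians ran from 8.82 to 9.10. The sources used here give neither its version nor how the 10361 deposited rows were chosen, and no detection call came with them. The array's annotation gave 1 symbol for 9496 rows, and 9486 of these matched a RefSeq gene identifier. The row with the highest mean was kept for 6 genes with several rows, which left 9490 genes.

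Groups came from the sample titles. One free-text label names intraepithelial neoplasia for all samples, against the titles and cell type labels of TNE. Replicate numbers only name samples. No 2 arrays were duplicates (identical values in at most 0.106% of rows). Precision is limited by the number of arrays.

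TNE was compared with TPIN in limma 3.58.1 (R 4.3.3) on the values as deposited, without covariates, two-sided, with Benjamini-Hochberg adjustment over all genes and a threshold of 0.05. The fit was tested on simulated data. Differences are log2, TNE minus TPIN, and folds are on the RMA scale. The members and gene lists were chosen with earlier results of these data known. The genes named were all members, up to 5 genes of each list by smallest p, and the 5 genes closest in pattern to each member that passed, leaving out predicted gene models. Others are marked. Alternatives were the mean of a gene's rows, all rows, leaving out the dimmest 25% of genes, quantile normalization or median centring, moderation with a trend and robust settings, array weights, and leaving out each array. Promoter sequences are from RefSeq, read with Python 3.11.15.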

Additional observations from a re-analysis of the deposited data

How the results depend on the processing

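Under the 7 alternatives that kept all 6 arrays, the direction of every member was unchanged, and Gstm2, Nqo1 and Gsr kept their calls, except that Nqo1 gave no value with the dimmest 25% of genes left out, because it was among them. Gstm1 passed under 3 of these alternatives and Txnrd1 with array weights. With array weights 5 members passed, and of all genes 4267 did, 2246 higher and 2021 lower in TNE. Of the other pathway genes 14 rose and 38 fell with array weights, and 4 rose after quantile normalization. With the dimmest 25% of genes left out 16 of them fell, beside 21 with all genes. Gstm3, Gstk1, Gstt3, Aldh1l1, Pir and Osgin1, which fell with all genes, were among the dimmest and gave no value there. Leaving out each array in turn gave 832 to 2596 genes past the threshold, 357 to 1311 higher and 475 to 1285 lower in TNE, where the fit of all arrays gave 1941, 976 and 965. Lower counts came without TNE replicate 2 (832), TPIN replicate 1 (936) or TPIN replicate 2 (1115). Among the other pathway genes 1 to 7 rose and 6 to 27 fell. Members past the threshold numbered 2 or 3. The difference of Gsr ranged from 1.10 to 1.71 and its limma adjusted p from 0.0315 to 0.103. The sign turned for Gclc (-0.011 to 0.72), Gclm (-0.207 to 0.505) and Arnt2, the second partner of the aryl hydrocarbon receptor (-0.008 to 1.05), which passed in none of these fits. The cause of these changes was not tested. No paired analysis was possible because the labels give no replicate numbers that the groups share.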

Other observations

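Other transferase genes shared rows that the annotation assigns to several genes, so they entered no comparison. The row of the pi-class genes Gstp1 and Gstp2 had log2 levels of 10.21, 10.08 and 8.45 on TNE arrays 1 to 3, against 10.01, 9.86 and 10.33 on TPIN arrays 1 to 3. Here too TNE replicate 3 was the lowest array. The row shared by the alpha-class genes Gsta1 and Gsta2 and 2 predicted gene models had 5.69, 4.22 and 3.56 on the TNE arrays, against 4.41, 4.51 and 4.29 on the TPIN arrays.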
